A study of Homo sapiens with 6 samples.

Results

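YAP1, its paralog WWTR1 (which encodes TAZ), their DNA-binding partners TEAD1 and TEAD4, and 6 genes widely read as their targets (CCN1, CCN2, ANKRD1, AMOTL2, LATS2 and AXL) were examined in a human breast tumour cell line. The members were taken as a list of gene names, and every probe set whose platform annotation names one of them was used. This gave 22 of the 54613 probe sets tested and 10 of the 19775 genes, with 3 genes read by 1 probe set and 7 by more. No member probe set named a second gene. Expression was measured on 6 Affymetrix arrays of MDA-MB-436, an established triple-negative breast tumour line, with 3 arrays of cells transfected with NF1-C2S and 3 of wild type cells. Per the series record the transfection was stable and the expression plasmid carried NF1-C2, which belongs to the nuclear factor I family of DNA-binding proteins. The transfected arrays are also labelled as overexpressing NF-C2, and the labels leave it unsaid whether a clone or a pool was profiled. All cells grew in RPMI-1640 medium with serum and insulin, and no control with an empty plasmid is named. The labels are silent on whether the arrays of a group had cultures of their own, so p-values reflect only how much these samples vary, and this may be technical variation.

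YAP and TAZ are transcriptional coactivators of the Hippo pathway. The kinases LATS1 and LATS2 phosphorylate them and hold them in the cytoplasm, and when this inhibition is relieved they enter the nucleus and bind TEAD factors, which carry the DNA-binding domain. The complex turns on genes of matrix, adhesion and growth, among them CCN1, CCN2 and ANKRD1, as well as feedback inhibitors such as LATS2 and AMOTL2. Their activity is set largely by phosphorylation and location of the proteins, which RNA levels do not measure. In breast cancer cells TAZ and YAP are known for links to migration, mesenchymal traits and stem-like growth.

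The values are log2 expression as deposited, so a difference of 1 is a doubling. A probe set was called when limma's adjusted p, by the Benjamini-Hochberg method over all 54613 probe sets, was under 0.05, and a gene was represented by its brightest probe set. Array medians lay between 4.80 and 4.85, and the median of all values was 4.82. Probe sets under that median in both groups are called dim. Correlations over probe sets were 0.992 to 0.997 among transfected arrays, 0.996 among wild type arrays and 0.971 to 0.976 between the groups. NFIC, the gene that the labels point to, was not called on its brightest probe set, with 8.25 ± 0.04 in transfected and 8.47 ± 0.06 in wild type cells (SD, n = 3 each; log2 change -0.22, limma adjusted p = 0.0820, and 0.0470 when adjusted over genes). No source used here says if that probe set reads the message of the plasmid, so each direction below rests on the labels. The labelled epithelial cell type was only partly borne out by its markers. Of the epithelial markers, CDH1 and KRT19 were dim in both groups and KRT18 read 11.62 in transfected and 12.55 in wild type cells. Of the 6, 2 fell (KRT18 and KRT7) and none rose, with summed log2 levels of 37.64 to 38.40 in transfected and 39.82 to 40.54 in wild type arrays. Of 5 mesenchymal markers, 3 fell and none rose, with sums of 40.98 to 41.44 in transfected and 44.53 to 45.10 in wild type arrays. FN1 read 7.44 in transfected and 10.21 in wild type cells (log2 change -2.77, limma adjusted p = 5.84e-06). VIM fell by 0.53 (adjusted p = 0.00132) and ZEB1 by 0.41 (adjusted p = 0.0162), CDH2 read 0.18 (adjusted p = 0.245), and SPARC was dim in both groups. The part of these marker shifts in the results below was not tested. The summed log2 level of 6 fibroblast markers was 27.12 to 28.24 in transfected and 27.12 to 28.38 in wild type arrays, and 4 of the 6 were dim. Of 4 endothelial markers 3 were dim. Of 3 measured immune markers, PTPRC and CD3E were dim and CD14 rose by 0.83 (limma adjusted p = 0.0115).

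The members did not move in 1 direction. The coactivator genes YAP1 and WWTR1 and the factor TEAD4 were lower in transfected cells, while the matricellular targets CCN1 and CCN2, the kinase LATS2 and the factor TEAD1 were higher. In all 7 of 10 members were called, where 29% of all genes were. Of these 4 rose, where 13.6% of all genes were called higher, and 3 fell, where 15.4% were called lower. AMOTL2, AXL and ANKRD1 were not called. Over probe sets, 7 of 22 rose (10.8% of all probe sets) and 8 fell (11.4%). Dim probe sets, few of them members, lower these shares over all. With them left out, 6 of 19 member probe sets rose and 8 fell, against 6233 and 6464 of all 28454. The groups did not overlap in 17 of the 22 member probe sets, against 34.9% of all probe sets, and in 9 of the 10 brightest ones, against 43% of all genes. The median log2 change over the 10 members was 0.10, against 0.00 over all genes. TEAD1 and WWTR1 were the least secure calls, and the counts without 1 array are given with them.

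**Figure D1:**
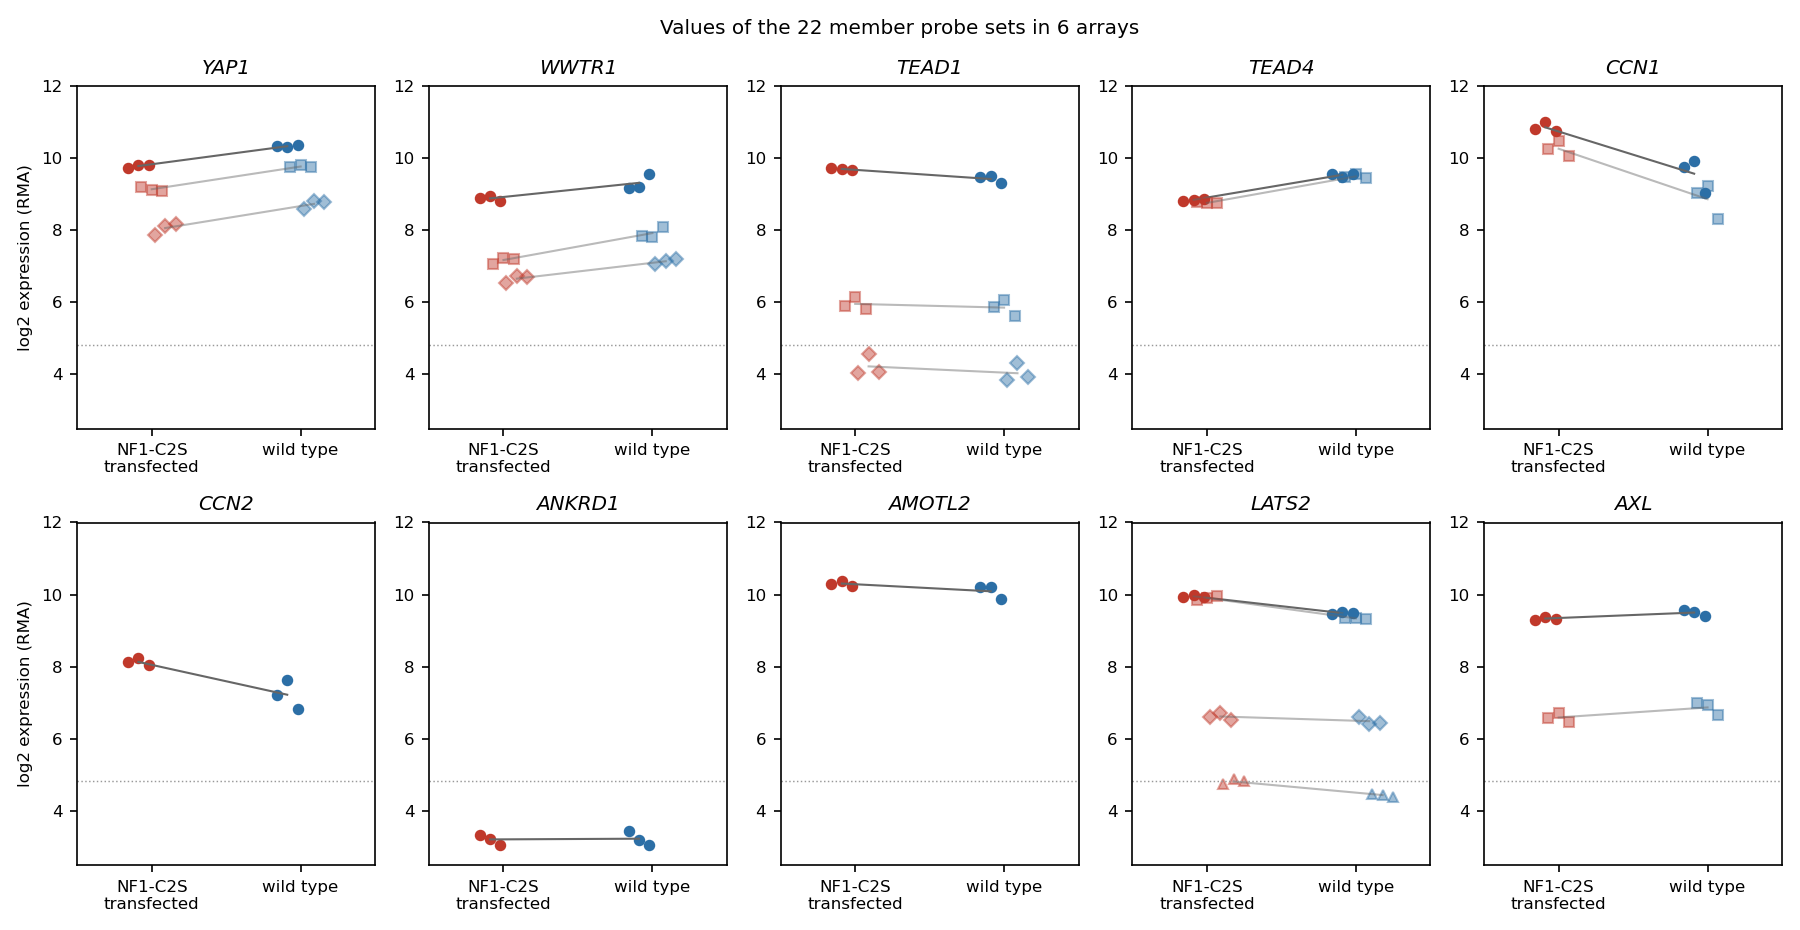
Log2 expression of the 22 member probe sets in each array, with transfected cells (red) left of wild type cells (blue) and a line joining the group means (n = 3 arrays each). Full-colour circles are the brightest probe set of a gene, paler squares, diamonds and triangles are its others, and the dotted line is the median of all values, 4.82. YAP1, WWTR1 and TEAD4 slope down towards the transfected cells, CCN1 and CCN2 slope up, and ANKRD1 lies under the dotted line in both groups.

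YAP1 encodes the coactivator YAP. Its brightest probe set, 224894_at, read 9.73, 9.81 and 9.80 in transfected cells, against 10.33, 10.30 and 10.36 in wild type cells. Every transfected array was below every wild type array, and the arrays within a group lay within 0.08 of each other. The log2 change was -0.55 (SE 0.07, limma adjusted p = 0.00109), 1.46-fold lower in transfected cells. The other probe sets read changes of -0.63 (adjusted p = 0.000574) and -0.67 (adjusted p = 0.00306) without overlap of the groups. The fall of YAP1 was thus read by all 3 of its probe sets, at similar size.

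WWTR1 encodes TAZ, which shares TEAD binding with YAP. Its brightest probe set, 202133_at, read 8.90, 8.95 and 8.80 in transfected cells, against 9.18, 9.21 and 9.55 in wild type cells. The transfected arrays were all lower, and wild type replicate 3 stood above the other wild type arrays. The log2 change was -0.43 (SE 0.11, limma adjusted p = 0.0305). That call ended without transfected replicate 2 or 3 (adjusted p = 0.0606 and 0.101) and without wild type replicate 2 or 3 (adjusted p = 0.0502 and 0.0609). The dimmer probe sets 202134_s_at and 202132_at fell by 0.75 (adjusted p = 0.00117) and 0.48 (adjusted p = 0.00498), and they kept an adjusted p under 0.05 whichever array was left out.

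The TEAD factors went opposite ways. TEAD4 read 8.82, 8.84 and 8.87 on 204281_at in transfected cells, against 9.56, 9.48 and 9.57 in wild type cells. The groups were far apart relative to their spread, and the log2 difference was -0.69 (SE 0.07, limma adjusted p = 0.000353). Its second probe set, 41037_at, gave -0.74 (SE 0.07, adjusted p = 0.000297). Among the brightest probe sets of the members, that of TEAD4 (204281_at) fell the most, at rank 1387 of 19775 genes ordered by fall.

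TEAD1 was slightly higher in transfected cells. Its brightest probe set, 224955_at, read 9.73, 9.71 and 9.66 in transfected cells, against 9.47, 9.49 and 9.30 in wild type cells. The groups did not overlap, and the log2 change of 0.28 (SE 0.08) only just passed the test (limma adjusted p = 0.0469). The call ended when any 1 of the 6 arrays was left out, with adjusted p-values from 0.0700 to 0.133. It also ended with arrays centred on their medians (adjusted p = 0.0510) and with the gene's probe sets averaged (log2 change 0.19, adjusted p = 0.293). The other TEAD1 probe sets read 0.10 and 0.19, and their groups overlapped. The opposite direction of TEAD1 and TEAD4 was not tested as a difference.

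With 1 array left out at a time, the count of members that rose was 3 and the count that fell was 2 or 3. The missing calls were those of TEAD1 and WWTR1. YAP1, TEAD4, CCN1, CCN2 and LATS2 kept their calls each time.

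**Figure D2:**
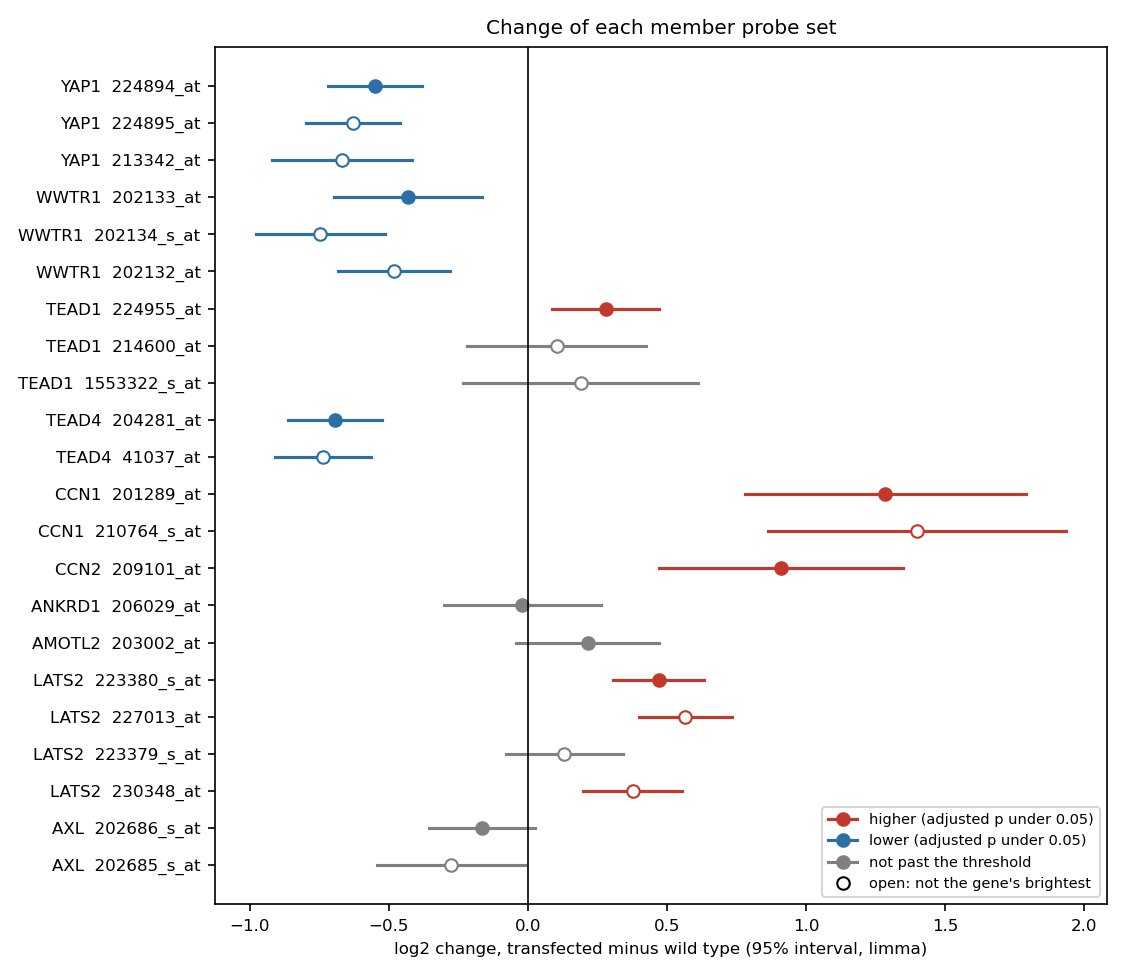
Log2 change of each member probe set, transfected minus wild type, with its 95% interval from limma (n = 3 arrays each). Filled points are the brightest probe set of a gene, and colour marks the call. Probe sets of 1 gene lie on the same side of 0, and the brightest ones of ANKRD1, AXL, AMOTL2 and TEAD1 lie nearest to it among the brightest.

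CCN1 and CCN2 (formerly CYR61 and CTGF) encode secreted matricellular proteins that bind integrins, and both are standard readouts of YAP and TEAD. CCN1 had the largest change of any member. On 201289_at it read 10.82, 11.00 and 10.74 in transfected cells, against 9.76, 9.92 and 9.02 in wild type cells. All transfected arrays were higher, and wild type replicate 3 was well below its own group. The log2 change was 1.29 (SE 0.22, limma adjusted p = 0.00377), or 2.44-fold, and 1.01 without wild type replicate 3 (adjusted p = 0.00206). The probe set 210764_s_at gave 1.40 (SE 0.23, adjusted p = 0.00335). Among all genes, 3.83% changed at least as much as CCN1 in either direction.

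CCN2 was read by 1 probe set, 209101_at, at 8.12, 8.24 and 8.04 in transfected cells and at 7.21, 7.64 and 6.82 in wild type cells. The groups did not overlap, and the wild type arrays were more spread than the transfected arrays. The log2 change was 0.91 (SE 0.19, limma adjusted p = 0.0100), or 1.88-fold. Without wild type replicate 3 it was 0.71 (adjusted p = 0.0202), and without wild type replicate 2 it was 1.12 (adjusted p = 0.00259). No array decided the call or the direction of either CCN gene.

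The promoters of CCN2, ANKRD1 and AMOTL2 are shown because TEAD factors bind the sequence GGAATG, and these 3 genes are known targets of theirs. Each is the stretch of 250 bases before the gene's start in RefSeq, build GRCh38.p14, written 5′ to 3′ on the gene's strand, with GGAATG or its reverse complement CATTCC in capitals. CCN2 lies at chr6:131951373-131951622 (minus strand), ANKRD1 at chr10:90921088-90921337 (minus strand) and the AMOTL2 start shown at chr3:134374448-134374697 (minus strand).
CCN2: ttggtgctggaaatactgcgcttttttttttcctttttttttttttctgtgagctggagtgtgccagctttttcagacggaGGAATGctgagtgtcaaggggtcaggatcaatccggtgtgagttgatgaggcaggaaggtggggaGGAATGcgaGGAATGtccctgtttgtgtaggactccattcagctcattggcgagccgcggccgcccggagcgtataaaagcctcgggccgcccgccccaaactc
ANKRD1: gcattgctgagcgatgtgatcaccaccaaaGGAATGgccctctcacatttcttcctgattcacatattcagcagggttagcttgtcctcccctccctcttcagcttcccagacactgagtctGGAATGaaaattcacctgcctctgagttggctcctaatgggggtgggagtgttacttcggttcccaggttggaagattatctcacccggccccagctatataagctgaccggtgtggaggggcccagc
AMOTL2: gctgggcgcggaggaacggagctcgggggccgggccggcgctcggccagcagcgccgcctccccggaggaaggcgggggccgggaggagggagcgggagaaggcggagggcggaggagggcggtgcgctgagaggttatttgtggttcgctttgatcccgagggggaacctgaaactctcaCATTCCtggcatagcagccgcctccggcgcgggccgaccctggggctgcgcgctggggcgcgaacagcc

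CCN2 held 3 matches, whose first bases lay 169, 104 and 95 bases before the start. ANKRD1 held 2, and the AMOTL2 start shown held 1 on the opposite strand. The other AMOTL2 start in the table, which is not shown, held 0. Promoters of 300 bases, reaching 50 bases past the start, were at hand for 7 of the 10 members, with 10 starts in all. CCN1, TEAD1 and TEAD4 had none, and WWTR1, AMOTL2 and AXL had more than 1 start. Searched on both strands, GGAATG was found in 6 of these 10 promoters (60%), against 14% of the 35116 promoters of the same length. The members were listed in part as known targets of TEAD, so this share describes the list and not the expression data. Only 0.128% of all promoters held 3 or more matches, as that of CCN2 did. The core of the nuclear factor I motif, TTGGC, was found in 6 of the 10 member promoters (60%) and in 45.6% of all promoters. The motifs can overlap, and in the LATS2 promoter a match of each shared 1 base. The AP-1 motif TGANTCA was found in 1 member promoter, that of ANKRD1, and in 7.71% of all promoters. The CArG box of SRF was found in no member promoter and in 1.29% of all. A match describes the letters of the window and is not evidence of binding.

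ANKRD1, which encodes an ankyrin-repeat protein of muscle and is another usual YAP readout, gave values near the bottom of the scale. It read 3.34, 3.23 and 3.06 in transfected cells, against 3.44, 3.19 and 3.06 in wild type cells. The groups overlapped, and both were dim on the only probe set. The log2 change was -0.02 (95% interval -0.30 to 0.26, limma adjusted p = 0.947).

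LATS2 encodes a kinase that inhibits YAP and TAZ and is itself a target of theirs. On 223380_s_at it read 9.94, 9.99 and 9.94 in transfected cells, against 9.46, 9.51 and 9.49 in wild type cells. The arrays of a group lay within 0.05 of each other, and the groups did not overlap. The log2 change was 0.47 (SE 0.07, limma adjusted p = 0.00215). The probe set 227013_at rose by 0.57 (adjusted p = 0.000927) and the dim 230348_at by 0.38 (adjusted p = 0.00936). The remaining one, 223379_s_at, read 0.13 (adjusted p = 0.417), and its groups overlapped.

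AMOTL2 encodes an angiomotin that binds YAP and retains it at junctions and in the cytoplasm. It read 10.30, 10.38 and 10.24 in transfected cells, against 10.21, 10.20 and 9.86 in wild type cells. Although the groups did not overlap, wild type replicate 3 lay apart from its group, and the log2 change of 0.22 did not pass (95% interval -0.04 to 0.47, limma adjusted p = 0.249). Without that array it was 0.10 (adjusted p = 0.557).

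AXL encodes a receptor tyrosine kinase for the ligand GAS6, and is a YAP target linked to mesenchymal traits and drug tolerance. On 202686_s_at it read 9.30, 9.39 and 9.32 in transfected cells, against 9.58, 9.53 and 9.40 in wild type cells. The transfected arrays were all slightly lower, but the log2 change of -0.17 did not pass (95% interval -0.36 to 0.02, limma adjusted p = 0.227). The dimmer probe set read -0.28 (adjusted p = 0.143), with groups that overlapped. Of the 6 target genes, 3 therefore rose and none fell past the threshold. The 3 that did not pass (unadjusted p = 0.0795 for AXL, 0.0899 for AMOTL2 and 0.874 for ANKRD1) had changes within 0.22 of 0.

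Among the members, the wild type arrays differed most from each other in the CCN genes. Wild type replicate 3 was the lowest wild type array for 6 of the 10 members, and deviated from its group mean by -0.54 for CCN1, -0.40 for CCN2 and -0.23 for AMOTL2. For WWTR1 the same array was 0.24 above its group mean. The SD among wild type arrays was 0.48 for CCN1 and 0.41 for CCN2, and only 0.283% and 0.632% of genes had one as large. The median over genes was 0.10. Among transfected arrays these SDs were 0.13 for CCN1 and 0.10 for CCN2, close to the median of 0.11 over genes. YAP1, TEAD4 and LATS2 varied little in either group, with SDs of 0.025 to 0.050. Wild type replicate 3 is also the one array with values of more than 2 decimals, 6354 in all, among them 9 of the 22 member probe sets. Its median difference from the mean of the other wild type arrays was 0.0014 in those probe sets and 0.00 in the rest. The value of CCN2 is not among them, nor is that of the second CCN1 probe set. Whether the handling of this array has a part in the spread of the CCN genes was not tested.

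**Figure D3:**
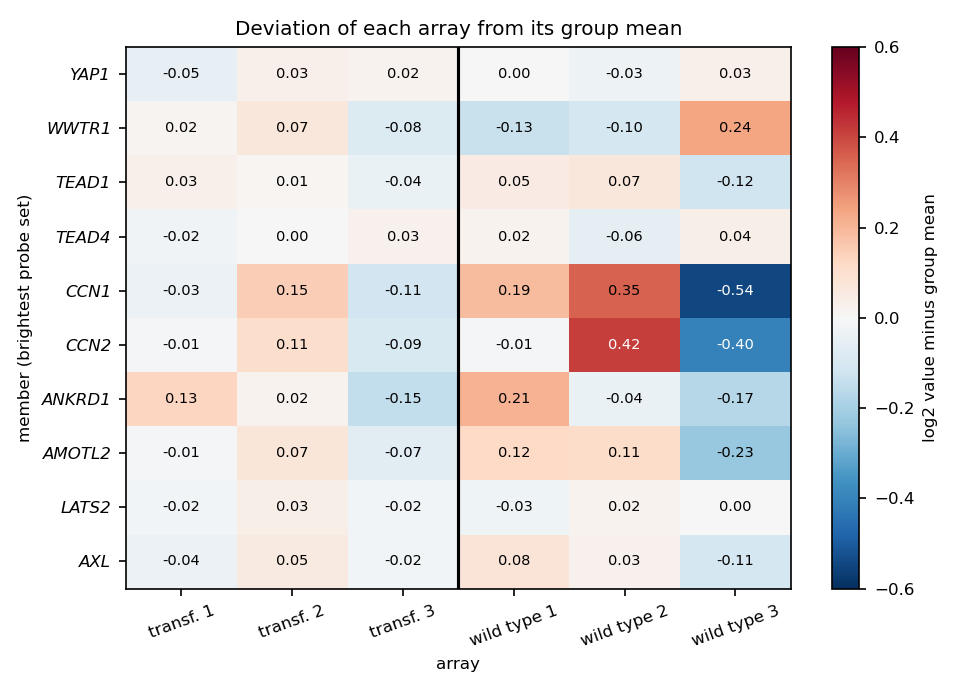
Deviation of each array from its group mean on the log2 scale, for the brightest probe set of each member, with transfected arrays left of the line and wild type arrays right of it. The strongest colours are the wild type arrays of CCN1 and CCN2, low in replicate 3 and high in replicate 2.

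The genes next to the members along the chromosomes were compared, since a run of genes can shift together in a stably transfected line. Only analysed genes count here, so a gene without a probe set that names it alone is passed over. On chromosome 11, the nearest analysed gene on 1 side of YAP1 was BIRC2, an inhibitor of apoptosis, which fell by 0.82 (limma adjusted p = 0.000180). CFAP300, on the other side of YAP1, was dim in both groups and read -0.08. Of the 20 nearest analysed genes, 6 fell and 2 rose, where 15.4% and 13.6% of all genes did, and the median of the 20 was -0.09. Many of the 20 had a mean level under the median of all values, and these weigh on that figure. TMEM123, next beyond BIRC2, had a log2 change of -0.89 (limma adjusted p = 0.000179). On the side of CFAP300, MAML2 read -0.75 and JRKL -0.94, both called lower, and CCDC82 between them -0.09. These 4 were named after their values were seen. The 2 that rose, named after their values were seen, were the metalloproteases MMP1 (log2 change 4.63) and MMP3 (3.99), the outermost genes on 1 side of the window.

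CCN2 stands beside ENPP1, an ectonucleotidase, which rose by 1.20 (limma adjusted p = 0.000174), and LINC01013, which was dim and read -0.04. CCN1 stands beside DDAH1, an enzyme that breaks down methylated arginine, which rose by 0.58 (adjusted p = 0.0152), and ZNHIT6, which read -0.14 (adjusted p = 0.428). The medians of their 20 neighbours were 0.02 for CCN2 and -0.05 for CCN1. Around CCN2, 4 of the 20 rose and 1 fell, and around CCN1, 1 rose and 4 fell (13.6% of all genes rose and 15.4% fell). Besides ENPP1, VNN1 (log2 change 4.37) and TMEM200A (1.65) rose more than CCN2, EPB41L2 rose by 0.58 and MOXD1 fell by 1.32. These 4 were named after their values were seen. Many neighbours of CCN2 had a mean level under the median of all values. Beside AMOTL2, ANAPC13, a subunit of the anaphase-promoting complex, fell by 0.38 (adjusted p = 0.0122) and RYK, a Wnt co-receptor, read -0.03. The genes next to WWTR1 (TM4SF4 and WWTR1-AS1), TEAD1 (PARVA and LINC00958), TEAD4 (TULP3 and TSPAN9), ANKRD1 (RPP30 and NUDT9P1), LATS2 (XPO4 and SAP18) and AXL (CYP2S1 and HNRNPUL1) did not pass. With the median shift of the 20 neighbours subtracted in each array, 4 members were still called higher and 3 lower. The change of YAP1 was then -0.40. Dim neighbours entered that median, so the subtraction can take out little of a shift that only the expressed neighbours show. Whether the regions shifted was not tested.

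**Figure D4:**
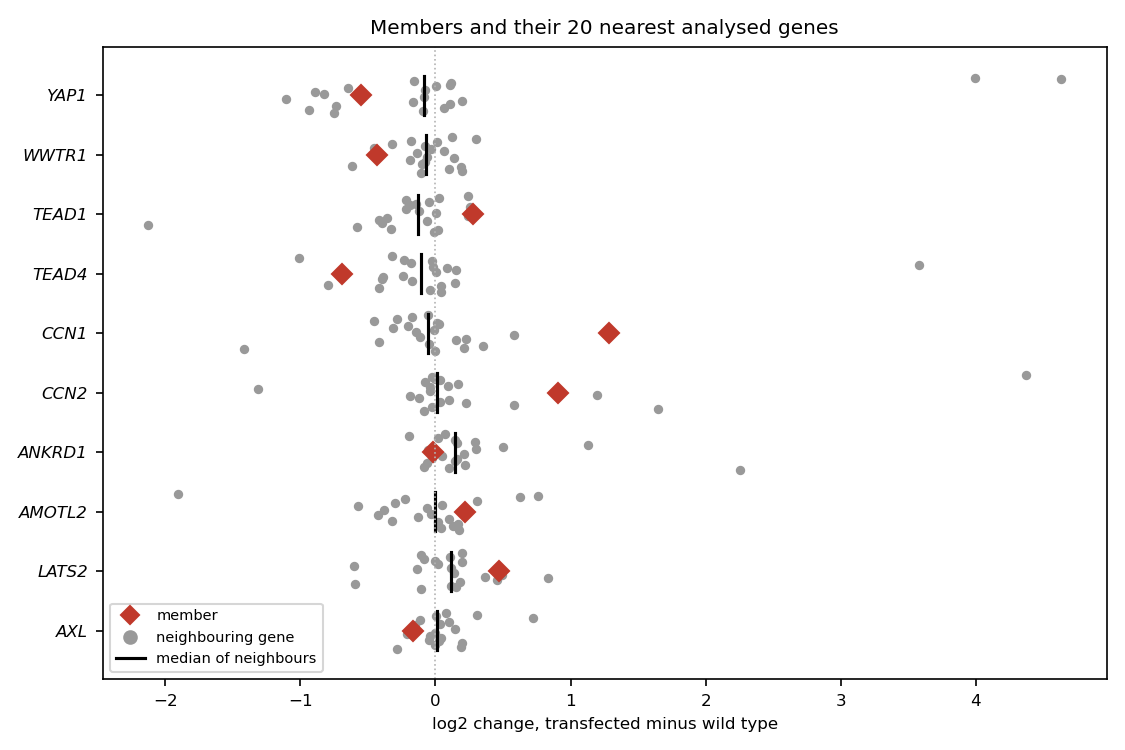
Log2 change, transfected minus wild type, of each member (red diamond) and of its 20 nearest analysed genes (grey points, with their median as a black bar). The medians of neighbours lie between -0.13 and 0.14. CCN1 at 1.29 and CCN2 at 0.91 lie above the medians of their neighbours, and some single neighbours of CCN2 lie above CCN2.

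Genes whose log2 profile came closest to that of a member were sought by the root mean square distance over the 6 arrays, after each gene was centred on its own mean. For YAP1 the closest genes were RNF139, a ubiquitin ligase of the endoplasmic reticulum (distance 0.019), WDR41, a WD-repeat protein (0.020), and SPCS1, a subunit of signal peptidase (0.025). Their log2 changes were -0.57, -0.53 and -0.53. For CCN2 they were DUSP1, a phosphatase that switches off MAP kinases (0.110), the sterol synthesis enzyme HMGCS1 (0.124) and the ubiquitin ligase MARCHF4 (0.131). DUSP1 averaged 11.53 in transfected and 10.60 in wild type cells, a log2 change of 0.94. With 6 arrays in 2 groups, such likeness is mostly a like change between the groups.

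The other genes of the pathway were taken from 8 lists with 73 measured genes. Of these, 11 rose and 26 fell, where 13.6% and 15.4% of all genes did, and 36 were not called. Their median log2 change was -0.11. Affymetrix marks probe sets that can hybridize to several transcripts by the endings _x_at and _s_at, and these are called shared probe sets below. Without them, 55 of these genes had a probe set, and 7 rose and 14 fell. Of all 17098 genes read in that way, 2234 rose and 2386 fell. Where a gene's brightest probe set was shared, the one that replaced it was dimmer and may be less able to show a change. IGFBP3, TAOK2, TEAD3, VGLL4, MYC, PROS1, SRF and FHL2 had only shared probe sets, so their changes below could not be read without them.

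Of the 20 genes of the Hippo kinase cassette and its inputs, 4 rose, 7 fell and 9 were not called, with a median of -0.02. STK3, which encodes the kinase MST2 upstream of LATS, averaged 8.60 in transfected and 9.62 in wild type cells (log2 change -1.02, limma adjusted p = 0.000178), or -0.55 after its neighbours' shift was subtracted. Its paralog STK4 rose by 0.27 (adjusted p = 0.0322). TAOK3, a kinase that can activate MST kinases, rose by 1.00 (adjusted p = 0.000126), or by 0.53 after that subtraction. TAOK2 fell by 0.49 (adjusted p = 0.00363), or by 0.11 after it (adjusted p = 0.488). The giant cadherin FAT1 rose by 0.65 (adjusted p = 0.000535). LATS1, the paralog of LATS2, read 0.26 and did not pass (adjusted p = 0.129). STK4 and LATS1 were named after their values were seen.

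Of 8 other TEAD factors, VGLL cofactors and angiomotins, 3 fell, 1 rose and 4 were not called, with a median of -0.23. AMOTL1, the angiomotin paralog of AMOTL2, averaged 6.77 in transfected and 8.55 in wild type cells, a log2 change of -1.78 (limma adjusted p = 0.000106), or -0.98 with its probe sets averaged. VGLL3, a cofactor that binds TEAD in place of YAP, was dim in transfected cells. It fell by an estimated 2.73-fold or more (log2 change -1.45, adjusted p = 0.0121). It read -0.85 with its probe sets averaged, and the call ended without wild type replicate 2 or 3 (adjusted p = 0.0532 and 0.0584). VGLL4, a competitor of YAP for TEAD, fell by 0.44 (adjusted p = 0.0380). That call ended without transfected replicate 2 or 3 or wild type replicate 3 (adjusted p = 0.113, 0.0948 and 0.0545), and the change was -0.05 after the neighbours' shift was subtracted. TEAD3 rose by 0.62, with 6.11 in transfected and 5.49 in wild type cells (adjusted p = 0.00742).

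The 22-gene YAP/TAZ target signature used across tumours holds the 6 target genes above and 16 others, of which 15 were measured here. Of these 15, 7 fell, 2 rose and 6 were not called, with a median of -0.27. IGFBP3, which binds insulin-like growth factors, read 4.97, 4.91 and 4.78 in transfected cells, against 9.59, 9.50 and 10.44 in wild type cells. The log2 change of -4.96 (limma adjusted p = 9.17e-06) was the largest in the lists. The transfected mean of 4.89 lay just above the median of all values, and transfected replicate 3 lay just under it. The clotting initiator F3 fell by 1.30 (adjusted p = 0.00283), the growth factor TGFB2 by 1.01 (adjusted p = 0.00849) and the membrane repair protein MYOF by 0.98 (adjusted p = 0.000127). MYOF read -0.23 without shared probe sets (adjusted p = 0.241). The 2 that rose, named after their values were seen, were PTPN14 (0.77), a phosphatase that restrains YAP, and FJX1 (0.61). Of 5 further genes often used as YAP readouts, 3 fell and none rose, with a median of -0.38. THBS1, a matricellular thrombospondin, fell by 2.61 (adjusted p = 0.000449), but read -0.09 without shared probe sets (adjusted p = 0.654). MYC fell by 0.59 (adjusted p = 0.00271). The apoptosis inhibitor BIRC5 fell by 0.38 (adjusted p = 0.0330), a call that ended without transfected replicate 2 or 3 or wild type replicate 1 or 2 (adjusted p = 0.0637, 0.0933, 0.108 and 0.111) and after the neighbours' shift was subtracted (log2 change -0.09).

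The CCN family was split. Whereas CCN1 and CCN2 rose, 2 of the 4 other family members fell and 2 were dim and not called. CCN3 read 6.85, 7.10 and 7.72 in transfected cells, against 8.77, 8.87 and 8.97 in wild type cells (log2 change -1.65, limma adjusted p = 0.000780). CCN4, a Wnt-induced member, read 3.63, 3.88 and 4.05 in transfected cells, against 6.19, 5.99 and 6.87 in wild type cells. As the transfected cells were dim, its fall was an estimated 5.64-fold or more (adjusted p = 0.000154).

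Among AXL's relatives and ligands 1 rose, 1 fell and 2 of the 4 were not called. The receptor MERTK was dim in wild type cells and read 6.23 in transfected and 4.20 in wild type cells. That is higher by an estimated 4.08-fold or more (limma adjusted p = 0.000169). Without shared probe sets its log2 change was only 0.27 (adjusted p = 0.407). The ligand PROS1 fell by 0.33 (adjusted p = 0.0351). Its call ended with arrays centred on their medians (adjusted p = 0.0553) and without any array but wild type replicate 1 (adjusted p from 0.0673 to 0.114). The ligand GAS6, named after its value was seen, read 0.14 (adjusted p = 0.380).

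SRF and its MRTF coactivators share targets with YAP, CCN1 and CCN2 among them. Of 15 measured genes of that list, 2 rose, 3 fell and 10 were not called, with a median of 0.09. SRF rose by 0.69 (limma adjusted p = 0.00111), or by 0.33 with its probe sets averaged. The myosin light chain MYL9 was dim in wild type cells and rose by an estimated 7.29-fold or more on its brightest probe set (adjusted p = 3.73e-06). It read a log2 change of only 0.13 without shared probe sets (adjusted p = 0.476). The LIM protein FHL2 averaged 8.94 in transfected and 10.49 in wild type cells, a fall by 1.55 (adjusted p = 5.28e-05). The smooth muscle actin ACTA2 fell by 1.07 on the log2 scale (adjusted p = 0.000369), or by 0.31 with its probe sets averaged. Of the 2 ankyrin-repeat paralogs of ANKRD1, ANKRD23 was dim and rose by 0.60 (adjusted p = 0.00186, and 0.0506 after the neighbours' shift was subtracted), and ANKRD2 read 0.00. In such bulk RNA, fewer cells that express a gene and less of its RNA per cell cannot be told apart.

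**Figure D5:**
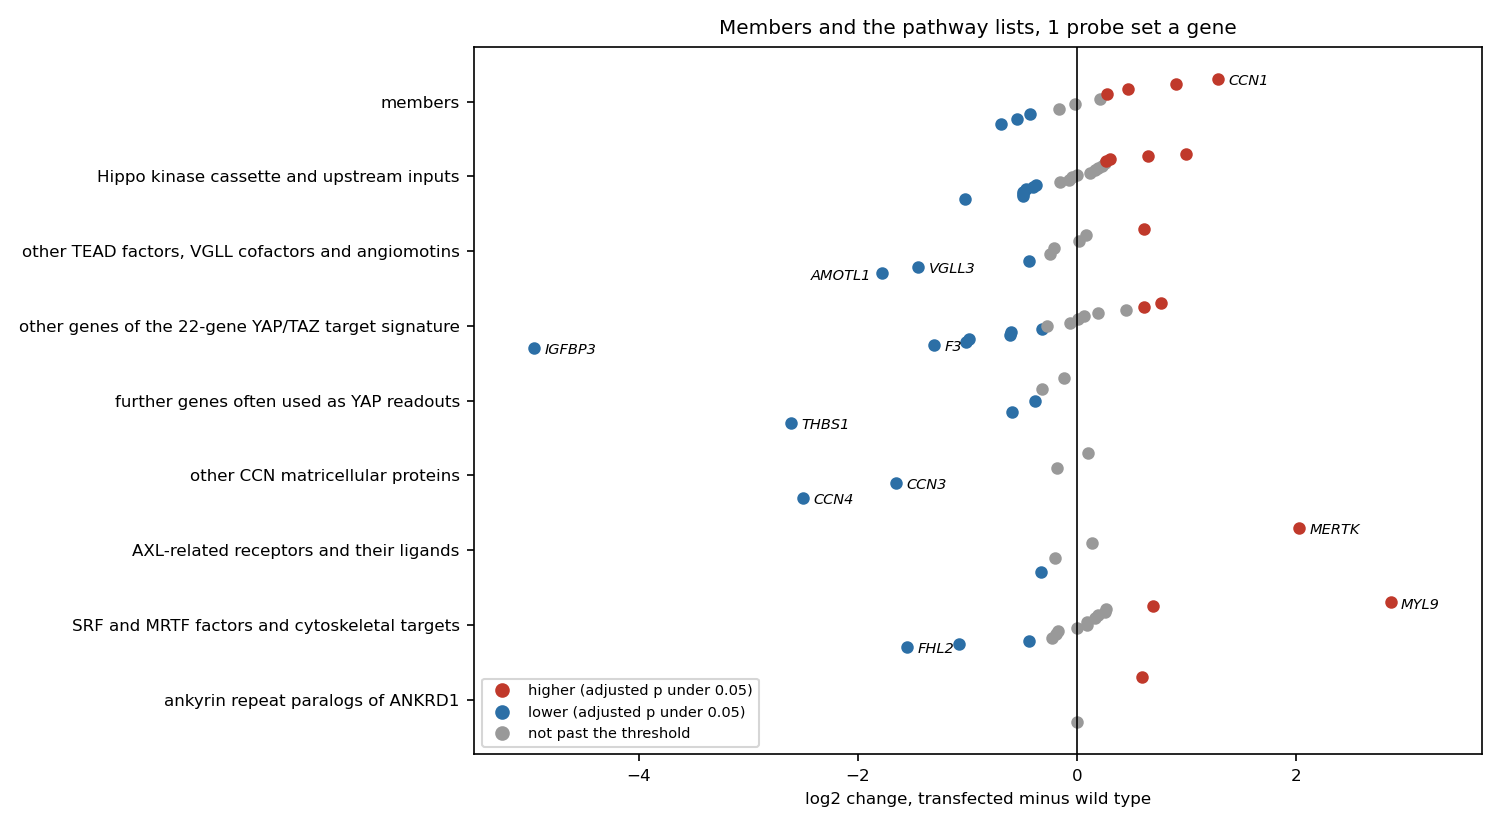
Log2 change, transfected minus wild type, of the brightest probe set of each member and of each measured gene of the 8 pathway lists. Each point is 1 gene, coloured by its call (limma, n = 3 arrays each), and called genes with the larger changes are named. The members lie between -0.69 and 1.29, while IGFBP3 lies at -4.96 and THBS1 at -2.61.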

How the data were processed

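The deposited values are log2 expression levels of each probe set on each of the 6 arrays, computed by the authors with RMA, as the submitters' processing notes state. Its version, and which arrays entered the normalization, are not given in the labels. Arrays have no read depth, and their number (3 per group) limits the precision. The 62 control probe sets were left out. Genes were named through the platform annotation, updated by gene identifier to RefSeq (GRCh38.p14), which gave 41091 probe sets 1 gene, 1801 several and 11721 none. The groups were compared with limma 3.58.1 in R 4.3.3, two-sided and without covariates, with all 54613 probe sets in 1 fit. The same code was tested on simulated data. Folds are given as estimated "or more" where the dimmer group lies under the median of all values. They are estimates from 1 probe set and not lower limits.

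The members and lists were chosen with earlier results of these data known. Besides all members, the text names up to 4 genes of each list with the largest called changes and no overlap, the nearest genes on either side of each member, the 3 genes closest to YAP1 and to CCN2, and NFIC. The alternatives were other normalizations, a replicate block, array weights, another moderation, a filter on dim probe sets, other choices of probe set, adjustment over genes, subtraction of the neighbours' median deviation, and leaving out each array. Arrays of the same replicate number correlated in their deviations from the group means by 0.398, 0.238 and 0.140 for replicates 1, 2 and 3. The labels do not say what a number stands for, and these values do not establish a pairing. Transfected replicate 3 correlated as much with wild type replicate 2 (0.142) as with wild type replicate 3. The main fit had no block, and the replicate block was an alternative only. Arrays of different numbers gave -0.277 to 0.142.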

Additional observations from a re-analysis of the deposited data

How the results depend on the processing

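With the replicate block, the counts of members were the same (4 higher and 3 lower), as were those of their probe sets (7 and 8), and no call of a member or a named list gene ended. Among the other settings, the count of members that rose was 3 with median centring or the mean of a gene's probe sets, and 4 otherwise, while 3 fell in each. Leaving out 1 array gave 3 that rose and 2 to 3 that fell, and 6 and 7 to 8 of the probe sets. Genes of the pathway lists moved to 7 higher and 14 lower without the shared probe sets (_x_at and _s_at), where 55 rather than 73 genes were measured. The change of ANKRD1 ranged from -0.105 to 0.0851 when 1 array was left out, turning positive (0.0551) without transfected replicate 3 and (0.0851) without wild type replicate 1. That of TEAD1 on 214600_at ranged from -0.0183 to 0.212, turning negative without wild type replicate 3, and the cause was not tested. Neither passed the test in any setting. Over the member probe sets and the other named genes, 697 of 738 values under an alternative kept direction and call, 35 lost the call, 3 gained it (all NFIC, which was then called lower) and 3 turned sign. RMA compresses differences near the dim end, so the changes given for dim probe sets are limited by signal.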
